A study of Sus scrofa with 13 samples.

Results

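The abundant testis-restricted lncRNAs of pig were 100 of the 10813 long noncoding RNAs listed in the 13 libraries, or 0.925% of them. They were chosen by 3 limits on the libraries of 9 organs at 240 days, namely a testis level of at least 10 RPKM, a higher level in testis than in any other organ, and a tau of at least 0.9. RPKM is the number of reads on a transcript divided by its length in kilobases and by the depth of its library. Tau runs from 0 for equal levels in all organs to 1 for reads in a single organ, and it was computed from log2(RPKM + 0.1), measured from the value at 0 RPKM. The testis level, the order of the organs and tau therefore describe how the lncRNAs were picked, and they are given as descriptions. Of the 172 lncRNAs with at least 10 RPKM in testis, 14 were higher in another organ and 58 were highest in testis with a tau under 0.9, which left these 100. By the same limits, 365 of 21607 Ensembl genes (1.69%) were testis-restricted.

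The series measured total RNA of pigs after depletion of ribosomal RNA. The 9 organs were heart, liver, spleen, lung, kidney, testis, ovary, adipose tissue and a back muscle, longissimus dorsi, each from Guizhou mini-pigs at postnatal day 240. Longissimus dorsi of the same breed was also sequenced at day 0 and day 30, and 2 further libraries were mixtures over multiple breeds and time points, 1 of multiple tissues and 1 of longissimus dorsi, for which the labels say that the RNA samples were pooled in equal amounts. No animal in these groups is given a treatment or a genotype. How many animals gave each library, whether the organs came from the same animals, and which tissues entered the tissue mixture are not given in the sources used here. Libraries were strand-specific and made by a SMART or a dUTP protocol, and the labels do not say which one was used for which library. There was 1 library per organ, stage or mixture, so no difference below had a replicate check and no test between them was made.

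The testis makes sperm in a continuous series of divisions and cell changes, in which spermatogonia enter meiosis as spermatocytes and the resulting spermatids pack their DNA with protamines, build an acrosome and grow a tail. Sertoli cells nurse these germ cells and Leydig cells between the tubules make androgens. Testis is known in mammals for transcribing many genes and many long noncoding RNAs that other organs keep silent, mostly in meiotic and postmeiotic germ cells. The identifiers of the 100 lncRNAs are those of the transcript assembly, and no function is attached to them here.

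The library labelled testis carried the markers of maturing germ cells. All 5 matched genes of spermatid chromatin were highest in testis, among them PRM1, a protamine, with 3203 RPKM and TNP1, a transition protein that precedes the protamines, with 1278 RPKM. The same held for 9 of 9 acrosome genes, 14 of 14 genes of the sperm tail and sperm energy supply, 13 of 14 meiosis genes and 8 of 9 genes of germ cell RNA handling, against 29.2% of all Ensembl genes above 0 in an organ. DDX4, a helicase of germ cells, had 88.9 RPKM in testis. Leydig cell genes were highest in testis in 4 of 5 cases, with INSL3, a hormone of these cells, at 1229 RPKM. Only 2 of the 6 matched Sertoli cell genes were highest in testis. In the other organs, 25 of 25 matched markers were highest in the organ they mark, though some were near the floor. APOA1 had 0.364 RPKM in liver and 0.358 in ovary, and NOBOX had 0.0541 in ovary. Adipose tissue and skeletal muscle had 1 matched marker each, and FSHR stood in both the ovary and the Sertoli cell list. In bulk tissue, a lower level cannot be split into fewer cells of a type and less RNA per cell.

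The testis library had 38581416 reads in the total used for RPKM, the most among the single-tissue libraries, and 12394421 of them were counted on features. The other single-tissue libraries had totals from 21685316 in ovary to 37756752 in adipose tissue and counted reads from 3620348 to 8241185, the tissue mixture had a total of 108337358 and the muscle mixture of 63015726. The summed RPKM of all features was 190421 in testis and 214285 in ovary, against 61672 to 130870 in the other single-tissue libraries. Scaled to the same summed RPKM, 47 of the 100 lncRNAs still reached 10 RPKM in testis with the other limits kept, and scaled by the median ratio of genes found in every organ, 48 did. For the 65 lncRNAs above 0 in 1 to 3 libraries, the recovered reads and lengths are the smallest that give whole numbers and are lower bounds, so their intervals are at least as wide as they should be and a count of 1 or 2 reads may stand for more. Sums of recovered reads that include such features are lower bounds as well. All intervals cover counting error only, since reads from amplified libraries are not independent molecules.

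The testis levels of the 100 lncRNAs ran from 10.02 to 87.3 RPKM with a median of 18.5, and 10 of them were at 50 RPKM or above. Among these 10, TCONS_00334042 was the highest with 87.3 RPKM (1589 reads, exact Poisson 95% interval 83.0 to 91.7). TCONS_00127960 had 83.6 RPKM, TCONS_00295212 had 76.3, TCONS_00439007 had 72.0 and TCONS_00461152 had 66.5. The intervals of neighbours in this order overlapped, while those of TCONS_00127960 (79.4 to 88.0) and TCONS_00439007 (67.7 to 76.5) were apart. TCONS_00294086 followed with 58.0 RPKM, TCONS_00875319 with 51.3, and TCONS_00622025, TCONS_00228553 and TCONS_00743755 with 50.2 each, again with overlapping intervals. Below these 10 there were 37 lncRNAs from 20 to under 50 RPKM and 53 under 20. The 365 testis-restricted Ensembl genes had a median of 25.6 RPKM and reached 3203.

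**Figure D1:**
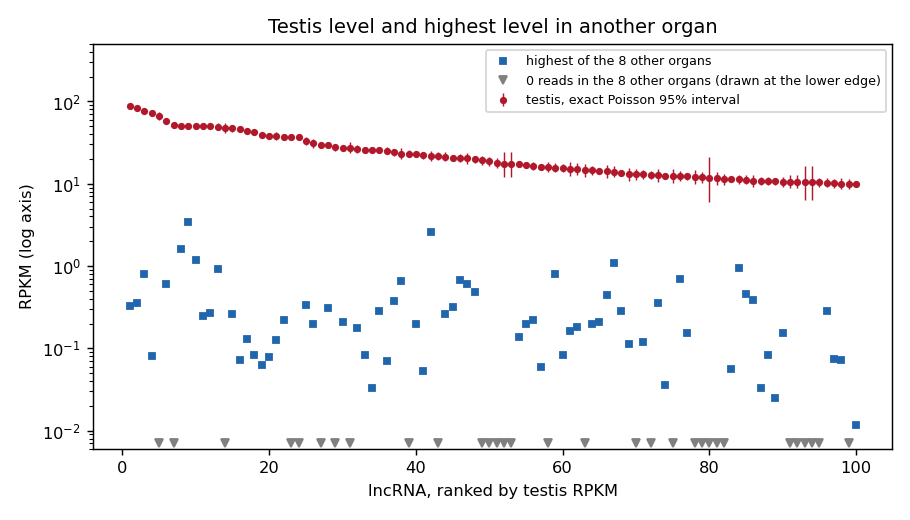
Testis level of each of the 100 lncRNAs (red circles, RPKM on a log axis, bars for the exact Poisson 95% interval of the reads) in order of that level, with the highest of the other 8 organs at day 240 (blue squares) or a grey triangle where all 8 had 0 reads. The testis levels run from 87.3 down to 10.02 RPKM, and only 5 blue squares reach 1 RPKM, the highest at 3.42.

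Together, the 100 lncRNAs made up 19.4% of the summed RPKM of all lncRNAs in testis. Of the recovered lncRNA reads of that library they held 53110 of 333989, or 15.9%. Both numbers include lower bounds, so this share is not exact. Its exact binomial 95% interval (15.8 to 16.0%) does not cover that. The 10 highest accounted for 25.5% of the summed RPKM of the 100. The most recovered reads fell on TCONS_00402628, a longer transcript with 4521 reads at 42.3 RPKM. This order is not settled, since the reads of many of the others are lower bounds. Many more lncRNAs were highest in testis and met the tau limit at lower levels. Of these, 1182 had a tau of at least 0.9 with a testis level from 1 to under 10 RPKM and 1553 had it under 1 RPKM. Tau is 1 for any lncRNA with reads in testis and none in the other organs, however few the reads. No floor of reads was set for these counts, and the part of low depth in them was not tested.

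The limits cut through a continuous range. TCONS_00245670, TCONS_00020003 and TCONS_00267064 lay just inside the level limit with 10.02, 10.04 and 10.06 RPKM, and TCONS_00499359, TCONS_00761056 and TCONS_00501387 just outside it with 9.87, 9.85 and 9.84 RPKM. On the tau limit, TCONS_00622025 (0.9002), TCONS_00614889 (0.903) and TCONS_00393636 (0.907) lay inside. TCONS_00142804 (0.897), TCONS_00015226 (0.894) and TCONS_00098531 (0.889) lay outside, the last of them with 32.8 RPKM in testis and 0.673 in lung. The lncRNAs left out included some far more abundant in testis. TCONS_00512109 had 1852 RPKM in testis and 278 to 6380 RPKM in the other 8 organs, and TCONS_00099633 had 322 RPKM in testis with 4.02 in spleen and a tau of 0.807.

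Outside testis, the 100 lncRNAs were close to the detection limit. In the other 8 organs together they had at least 511 reads, and in all 12 other libraries at least 1183. No reads in the 8 organs were found for 31 of them, which is 31 of 100 where 24.7% of all lncRNAs above 0 in testis had none. The limits used these organs, so this count is a description. In all 12 other libraries, 23 had no reads. For at most 58, every other organ was under 3 reads, which was taken as the floor, and for 5 another organ reached 1 RPKM. The 58 is an upper limit because recovered reads can be lower bounds. The limits bear on these counts too, and their share over all lncRNAs was not computed, so they are descriptions only.

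**Figure D2:**
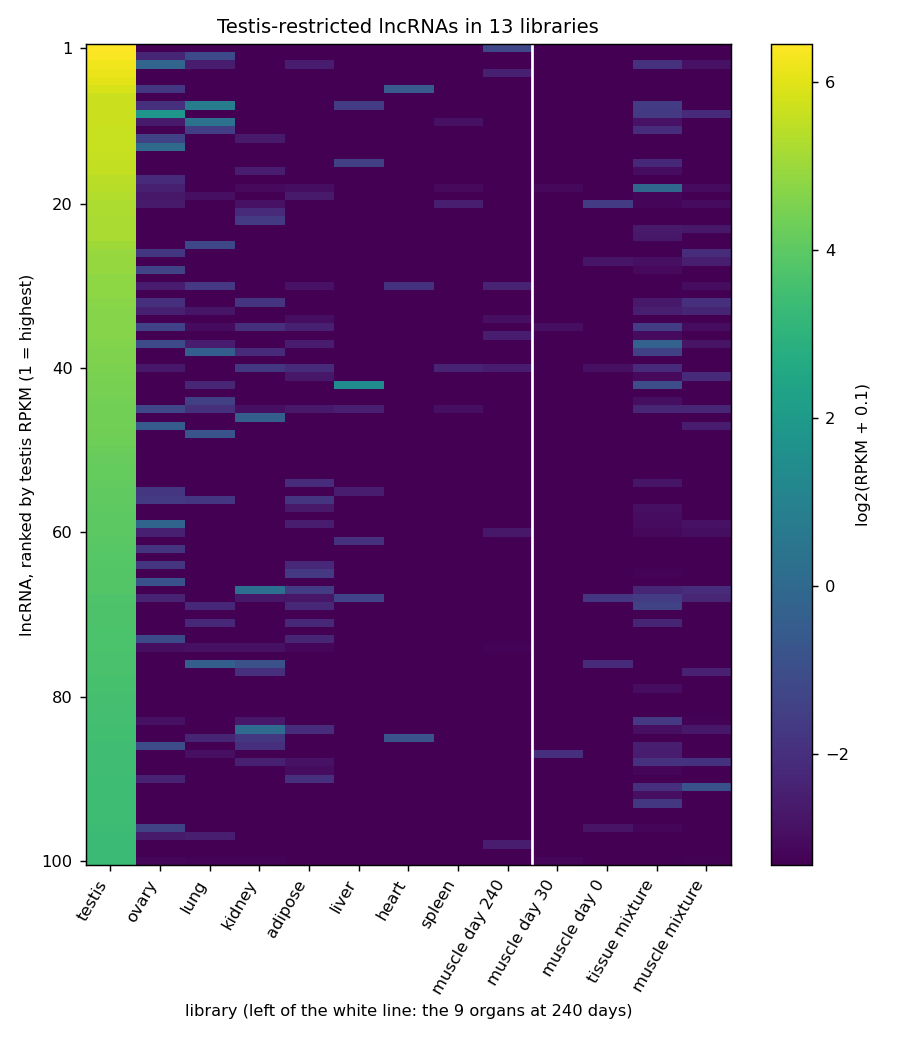
Levels of the 100 lncRNAs (rows, ranked by testis RPKM) in the 13 libraries (columns), coloured by log2(RPKM + 0.1), with the 9 organs at day 240 to the left of the white line. The testis column is bright throughout and the other 12 columns are dark with scattered weak cells, most of them in ovary, lung, kidney, adipose tissue and the tissue mixture.

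How far a level of 0 lies below testis depended on the length and the depth. With the floor of 3 reads per library in ovary, the shallowest of the 9 libraries in its total, the 31 lncRNAs with no reads in the 8 organs were at least 2.06-fold to at least 201-fold higher in testis, with a median of at least 38.03-fold. TCONS_00875319 gave the highest of these bounds, with 1071 reads in testis and 0 in each of the other 12 libraries. TCONS_00461152, with 372 reads in testis, was likewise listed at 0 in the other 12, and it was at least 69.7-fold higher in testis than in ovary. TCONS_00793884 gave the lowest bound, with 11 reads (11.9 RPKM, 5.93 to 21.3) on a recovered length of 24 nt. These 31 all had a tau of 1, so no 5 highest could be ranked.

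For the other 69 lncRNAs, the organ with the highest level after testis was ovary in 24 cases, lung in 14, kidney in 12, adipose tissue in 7, muscle at day 240 in 5, liver in 4, heart in 2 and spleen in 1. Where that organ had at least 4 reads, which held for 31 lncRNAs, testis was 8.51-fold to 508-fold higher with a median of 65.5-fold as deposited. The same folds had a median of 43.0 (2.94 to 572) with libraries scaled to the same summed RPKM and of 51.6 (2.13 to 763) with the median ratio. The number with ovary next to testis was 15 when libraries were scaled to the same summed RPKM and 14 when scaled by the median ratio, as the ovary values were multiplied by the smallest factor in both.

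As deposited, ovary held the most. The summed RPKM of the 100 lncRNAs in ovary was 0.482% of that in testis, and 38 of them had reads there, with at least 3 reads for 16. The order of the organs turned with the scaling. With the same summed RPKM per library, lung stood at 0.661%, ovary at 0.428% and liver at 0.416%. With the median ratio, liver stood at 0.575%, lung at 0.381% and ovary at 0.321%. In recovered reads, some of them lower bounds, lung had 142 and ovary 120. No organ was thus placed next to testis under every scaling. The ovary shares are to be set beside 36.8% of all lncRNAs with reads in ovary and 24.9% with at least 3. TCONS_00228553 carried 28.1% of the ovary sum with 3.42 RPKM (19 reads, 2.06 to 5.34) against 50.2 RPKM in testis (45.9 to 54.8). It also had 0.216 RPKM (6 reads) in the tissue mixture, 0.124 RPKM (2 reads) in the muscle mixture and no reads elsewhere. TCONS_00294485 followed in ovary with 0.930 RPKM on 5 reads, TCONS_00295212 with 0.801 on 7, TCONS_00242758 with 0.797 on 7 and TCONS_00086351 with 0.612 on 3, which were not apart from each other by their counting intervals.

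Germ cell markers were found in the ovary library as well. The summed RPKM of the 51 germ cell markers in ovary was 0.607% of that in testis. It was 0.442% in lung and from 0.120% in liver to 0.182% in kidney for the other organs. The ovary sum includes markers that are not restricted to testis, such as MSH4, a meiosis gene with 12.3 RPKM in ovary and 5.18 in testis. For the 28 markers that met the limits used for the lncRNAs, the sum was 0.236% in ovary, 0.0935% in lung and 0.0456% in heart. The 365 testis-restricted Ensembl genes summed to 0.425% in ovary. PRM1 had 4.52 RPKM, TNP1 had 2.53 and TNP2, another transition protein, had 1.37 in ovary, while PRM2 and TSSK6 were at 0. In heart, PRM1 had 1.45 RPKM, TNP2 had 1.40 and TNP1 had 0.464. DDX4, which oocytes share with male germ cells, had 1.74 RPKM in ovary. The part of such RNA in the ovary values of the lncRNAs was not tested.

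In lung, 25 of the 100 lncRNAs had reads and 13 had at least 3, beside 36.6% and 26.7% of all lncRNAs, and their sum was 0.284% of the testis sum. TCONS_00622025 led with 1.62 RPKM (35 reads, 1.13 to 2.26), which was 22.6% of the lung sum, and it had 0.223 RPKM in liver on 4 reads, 0.158 in ovary on 2 and 0.237 in the tissue mixture on 15. TCONS_00743755 had 1.17 RPKM in lung on 32 reads (0.801 to 1.65) with single reads in spleen and ovary. Both had most of their reads outside testis in lung among the organs. TCONS_00614889 had 0.686 RPKM in lung on 11 reads and 0.444 in kidney on 7. Among the marker genes, those of the sperm tail and sperm energy supply summed to 25.6 RPKM in lung, more than in any other organ but testis. The highest were ROPN1L with 5.66, SPAG6 with 5.64, CABYR with 3.91, and ODF2 and TEKT1 with 2.65 each, while GAPDHS and CATSPER1 were at 0. SPAG6 and TEKT1 also serve motile cilia. The spermatid chromatin genes summed to 0.231 in lung, with 0.174 for TNP2, 0.0565 for PRM2 and 0 for PRM1, TNP1 and TSSK6. The part of ciliated cells in the lung values was not tested.

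**Figure D3:**
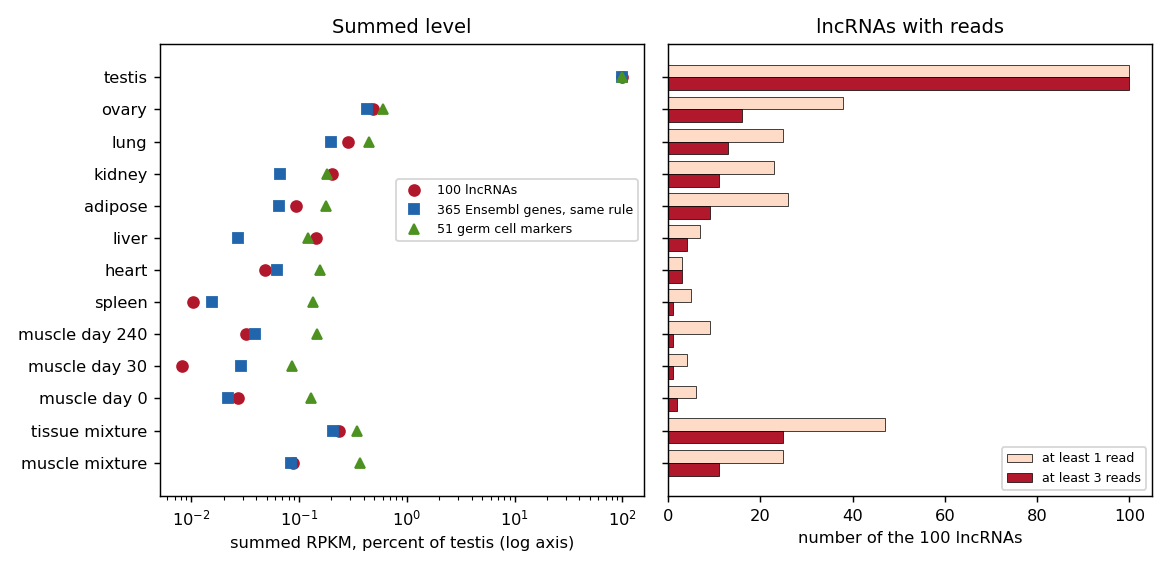
Left, summed RPKM in each library as a percentage of testis on a log axis, for the 100 lncRNAs (circles), the 365 testis-restricted Ensembl genes (squares) and the 51 germ cell markers (triangles). Right, the number of the 100 lncRNAs with at least 1 read and at least 3 reads in each library. All libraries other than testis lie under 1% of the testis sum for each set, and for the lncRNAs as deposited ovary is highest at 0.482% and muscle at day 30 lowest at 0.00821%, an order that turns with the scaling.

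Kidney had reads on 23 of the lncRNAs and at least 3 on 11, beside 35.4% and 25.2% of all lncRNAs. TCONS_00399090 had 1.09 RPKM there (14 reads, 0.598 to 1.84) and 0.226 RPKM in adipose tissue on 3 reads, against 14.1 in testis. TCONS_00370544 had 0.958 RPKM in kidney on 20 reads and TCONS_00479143 had 0.669 on 9. Adipose tissue had reads on 26 lncRNAs and at least 3 on 9, beside 32.2% and 23.4% of all, and its highest level after that of TCONS_00399090 was 0.206 RPKM for TCONS_00623583 on 12 reads. In each of these 4 organs, the share of the 100 lncRNAs with at least 3 recovered reads was below that of all lncRNAs, and the limits used these levels. With at least 1 read, ovary had 38 of the 100 beside 36.8% of all lncRNAs, while lung, kidney and adipose tissue stayed below. Recovered reads can be lower bounds, so the shares with at least 3 may be higher.

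In liver, a single lncRNA made up most of the sum. TCONS_00666974 had 2.56 RPKM in liver on 20 reads (1.57 to 3.96), against 21.8 RPKM in testis on 213 reads, a fold of 8.51 as deposited that was the smallest of those resting on at least 4 reads. It stayed the smallest at 2.94 and 2.13 under the scalings to the same summed RPKM and by the median ratio. It was 70.6% of the liver sum, and without it the liver fell from 0.144% to 0.0427% of the testis sum. The next in liver were TCONS_00737120 with 0.286 RPKM on 9 reads and TCONS_00822283 with 0.258 on 2, and 7 lncRNAs in all had reads there and 4 at least 3, beside 22.6% and 14.6% of all lncRNAs.

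Heart and spleen were nearly empty. In heart 3 of the 100 lncRNAs had reads, TCONS_00294086 with 0.596 RPKM on 5, TCONS_00393636 with 0.462 on 9 and TCONS_00683264 with 0.171 on 4, where 20.3% of all lncRNAs had reads and 16.5% at least 3. In spleen 5 had reads, beside 23.8% of all lncRNAs, and 1 of them at least 3, beside 17.6%, which was TCONS_00469375 with 0.0987 RPKM on 3. The spleen sum was 0.0105% of the testis sum and the heart sum 0.0486%.

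The 3 libraries of longissimus dorsi tell how these lncRNAs stood in growing skeletal muscle, of which day 0 and day 30 were not used to choose them. At day 0 the sum was 0.0269% of the testis sum, with reads on 6 lncRNAs (15.5% of all lncRNAs) and at least 3 reads on 2 (12.7% of all). At day 30 it was 0.00821%, with reads on 4 (17.6% of all) and at least 3 on 1 (10.3% of all). At day 240 it was 0.0320%, with reads on 9 (15.3% of all) and at least 3 on 1 (10.4% of all). Few of these lncRNAs had reads at any stage, and under the 2 scalings the sums of the stages lay between 0.0191% and 0.120%. No reads at any of the 3 stages were found for 82 of them, beside 73.4% of all lncRNAs, and at least 3 reads at a stage for 4, beside 19% of all. At day 0, TCONS_00435684 had 0.236 RPKM on 6 reads (0.0868 to 0.515), TCONS_00737120 had 0.192 on 7 (0.0772 to 0.396) and TCONS_00614889 had 0.129 on 2. At day 30, TCONS_00570899 had 0.151 RPKM on 3 reads, and TCONS_00249401 and TCONS_00402628 had a single read each. At day 240, TCONS_00334042, the highest in testis, had 0.325 RPKM on 5 reads (0.105 to 0.757). No lncRNA had at least 3 reads at more than 1 stage, and with 18, 6 and 15 reads in all on the 100 at day 0, day 30 and day 240, an order of the stages was not detectable at this depth.

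The 2 mixtures were not used to choose the lncRNAs either. In the tissue mixture, the deepest library, 47 of the 100 had reads and 25 had at least 3, beside 60.9% and 48.3% of all lncRNAs, and their sum was 0.234% of the testis sum. The level in the tissue mixture relative to testis had a median of 0% over the 100. The highest 3 stood at 3.09%, 2.09% and 2.06% of their testis level. TCONS_00402628 alone took 265 of the 573 recovered reads (46.2%) but 14.9% of the summed RPKM. With it left out of both sums, the mixture stood at 0.203% of testis. It had 0.884 RPKM or 2.09% of its testis level (exact conditional binomial 95% interval 1.84 to 2.36%). TCONS_00832361 stood highest in relation to testis with 0.742 RPKM or 3.09% (2.05 to 4.49%), and TCONS_00811764 had 0.271 RPKM on 7 reads or 2.06%. TCONS_00815686 followed at 1.87% on a single read and TCONS_00666974 at 1.84% on 11. These and the following lncRNAs of the mixture were named after their values were seen, since at a median of 0 no lncRNA could meet the depth limit set for naming them. Among those with at least 20 reads there, TCONS_00641651 had 0.208 RPKM on 56, 1.84% of testis, and TCONS_00249401 had 0.244 on 34, 0.959% of testis, whereas TCONS_00245670, also long, had a single read in the mixture and 1534 in testis.

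Sets restricted to the other organs by the same limits showed a different level in the tissue mixture. The 35 Ensembl genes restricted to liver summed to 59.9% of their liver level, the 5 of heart to 49.0%, the 13 of muscle to 21.7%, the 44 of kidney to 11.1%, the 6 of spleen to 10.03% and the 13 of lung to 4.46%. The sets of both gonads and of adipose tissue were low, with 0.521% for the 3 genes of adipose tissue, 0.445% for the 13 of ovary and 0.206% for the 365 of testis. Scaling lowered the former sets, with liver at 23.7% for the same summed RPKM and 10.6% for the median ratio and lung at 2.20% and 2.36%, while testis stood at 0.235% and 0.146% and the 100 lncRNAs at 0.268% and 0.166%. Among lncRNAs, the 7 restricted to kidney summed to 9.11% of their kidney level, with a median of 4.75% and a highest value of 34.5%. Heart had 2 such lncRNAs (5.31%) and lung 2 (1.37%). Liver (3.31%), adipose tissue (3.60%) and muscle (343%) had 1 each, and all these were too few to describe as a set. The lncRNA sums of heart, liver, lung and kidney lay below the Ensembl sums of the same organ, and those of adipose tissue and muscle above. Of the spermatid chromatin genes, PRM1, PRM2 and TNP1 were listed at 0 in the tissue mixture, TNP2 had 0.725 RPKM and TSSK6 had 0.0674. INSL3 had 0.0121 RPKM. The 51 germ cell markers summed to 0.343% of testis there, with 8.23 RPKM for MSH4 alone. The 28 that met the limits for testis summed to 0.0361%. Whether testis RNA was among the samples mixed was not tested and is not given in the sources used here.

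**Figure D4:**
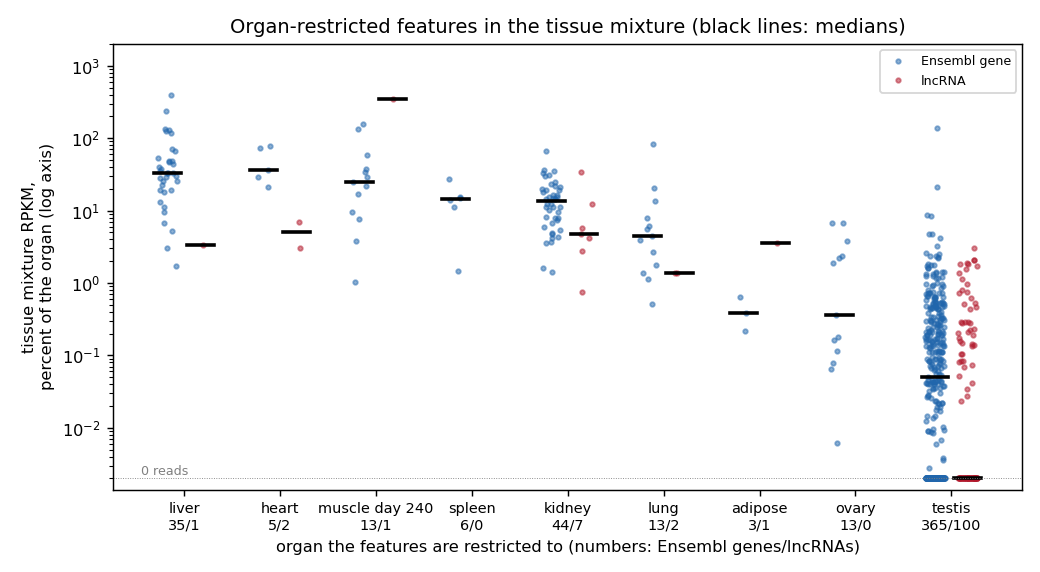
Level in the tissue mixture as a percentage of the level in the organ to which a feature is restricted (log axis), for Ensembl genes (blue) and lncRNAs (red) chosen for each organ by the limits used for testis, with black lines at the medians and features with 0 reads at the lower edge. The sets of liver, heart, muscle, spleen and kidney have Ensembl medians from 13.4% to 36.8%. The Ensembl medians are 4.48% for lung, 0.390% for adipose tissue, 0.361% for ovary and 0.0507% for testis. Among lncRNAs, the 7 of kidney have a median of 4.75%, and the 100 of testis a median of 0% and a highest value of 3.09%.

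Most of the 100 lncRNAs were not compared between the 2 mixtures, as 49 had no reads in either and others stayed under 0.1 RPKM in both. Of the 23 with at least 0.1 RPKM in either mixture, 13 were at least 2-fold higher in the tissue mixture on the log2(RPKM + 0.1) scale, beside 33.4% of 4486 lncRNAs, and 2 were at least 2-fold higher in the muscle mixture, beside 12.6%. The median difference of the 23 on that scale was 1.07, against 0.46 for the 4486. The largest difference was that of TCONS_00402628, with 0.884 against 0.0229 RPKM. In the other direction, TCONS_00329318 had 0.453 RPKM in the muscle mixture on 9 reads against 0.147 in the tissue mixture on 5. TCONS_00325014 had 0.137 RPKM in the muscle mixture on 2 reads and none in the tissue mixture. With few reads on most of them, the scale understates a change of low levels, and none of the 23 reached 1 RPKM in either mixture. In the muscle mixture TCONS_00056639 had 0.167 RPKM on 7 reads, TCONS_00425491 0.154 on 3 and TCONS_00399090 0.135 on 3, and 25 of the 100 lncRNAs had reads there and 11 at least 3, beside 45.9% and 33.7% of all lncRNAs.

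A few of the lncRNAs were found at low levels in many libraries. TCONS_00691054 was above 0 in 9 of the 13 libraries, the most of the 100, with 20.8 RPKM in testis, 0.317 in ovary on 6 reads, 0.155 in lung on 5, 0.106 in the tissue mixture on 10, 0.109 in the muscle mixture on 6, and at most 2 reads in liver, spleen, kidney and adipose tissue. TCONS_00402628, TCONS_00249401, TCONS_00469375 and TCONS_00737120 were above 0 in 8 libraries. TCONS_00737120, at 13.5 RPKM in testis, had 0.286 in liver and 0.192 in muscle at birth, and the tissue mixture showed 0.235. These 5 had at least 533 reads each in testis. TCONS_00591416, with at least 1765 reads in testis, was above 0 in 2 libraries. The part of depth in the number of libraries was not tested. At the other end, 23 lncRNAs were above 0 in testis alone and 18 in testis and 1 further library.

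By median, the lncRNAs whose length is better determined were shorter than other lncRNAs, but longer than the others abundant in testis. The recovered length had a median of 404 nt over all 100 (quartiles 260 and 658 nt), where 65 values are lower bounds. For the 35 above 0 in at least 4 libraries, whose length is better determined, the median was 583 nt, against 828 nt for the 4957 other lncRNAs above 0 in at least 4 libraries. The other lncRNAs with at least 10 RPKM in testis that were above 0 in at least 4 libraries had a median of 463 nt (n = 71). At a given number of reads a shorter transcript has a higher RPKM, and the part of the level limit in these lengths was not tested. Those with no reads in the 8 other organs had a median of 309 nt and those with reads 471 nt, but 30 of the 31 lengths of the former are lower bounds against 35 of 69 of the latter, so these medians cannot be compared.

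**Figure D5:**
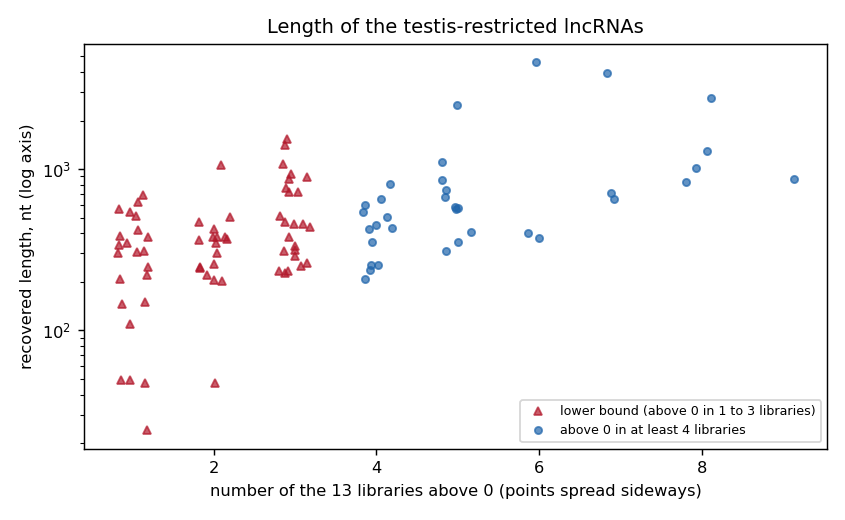
Recovered length (nt, log axis) of the 100 lncRNAs against the number of the 13 libraries in which each was above 0, with triangles for lengths that are lower bounds and circles for the 35 lncRNAs above 0 in at least 4 libraries. Lengths run from 24 to 4586 nt, and all 8 lengths under 200 nt are lower bounds.

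The longest recovered lengths were 4586 nt for TCONS_00403948, 3967 nt for TCONS_00245670 and 2767 nt for TCONS_00402628. TCONS_00403948 had 12.6 RPKM in testis on 2224 reads and at most 6 reads in any other library, at 0.0360 RPKM in kidney, 0.0354 in lung, 0.0302 in ovary, 0.0116 in adipose tissue and 0.00668 in muscle at day 240. TCONS_00245670 had 1534 reads in testis and single reads in lung, kidney, ovary, muscle at day 30 and both mixtures. The long transcripts thus gave the deepest view outside testis, and TCONS_00403948 and TCONS_00245670 were low there. TCONS_00402628 was low in the other organs, with at most 0.0833 RPKM, in ovary. In the tissue mixture it had 0.884 RPKM, or 2.09% of its testis level, the highest level of the set there. TCONS_00641651, with 2485 nt, had at most 0.0553 RPKM in another organ, kidney. In the tissue mixture it had 0.208 RPKM, or 1.84% of its testis level. The shortest recovered lengths were 24 nt for TCONS_00793884, 47 nt for TCONS_00334731 and TCONS_00815686, and 49 nt for TCONS_00348157 and TCONS_00402882. These are lower bounds from 1 or 2 libraries. TCONS_00334731 and TCONS_00815686 had the same testis value of 10.5 RPKM, and TCONS_00348157 and TCONS_00402882 the same of 17.5 RPKM. Whether reads were shared between them was not tested.

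Identifiers that are close in number can belong to 1 locus of the assembly. TCONS_00106832 (33.4 RPKM in testis) and TCONS_00106836 (14.5 RPKM) were the sole pair of the 100 within 5 numbers. A listed lncRNA of any kind lay within 5 numbers for 22 of the 100, beside 42.6% of all lncRNAs. Among the 28 such neighbours outside the 100, 9 reached 1 RPKM in an organ, and 8 of the 9 were highest in testis with a tau of at least 0.9, such as TCONS_00591418 with 8.79 RPKM, TCONS_00084464 with 7.33 and TCONS_00815688 with 6.95. Of all lncRNAs that reached 1 RPKM in an organ, 55% were highest in testis and 38.3% also had that tau. The remaining one, TCONS_00245674, had 2.95 RPKM in testis and a tau of 0.651.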

How the data were processed

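Total RNA of 13 pig libraries was analysed, with groups taken from the sample labels. The authors aligned reads with TopHat (1.3.2 per the submitters' processing notes), assembled transcripts with Cufflinks, counted reads with htseq-count and deposited RPKM for 32420 features. The genome build of these libraries is not given in the sources used here. The deposited files hold no comparisons.

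Totals, lengths and whole reads were recovered from the RPKM values, which came out whole for 29462 of 29462 features above 0 at a relative tolerance of 1e-12. With totals altered by up to 1%, 0 of 3000 features did. On simulated data, the procedure returned 13 of 13 totals. It also returned the true length and reads for 4484 of the 4507 simulated features with reads in 4 or more libraries. Since there was 1 library per group, no test was made and no count model was fitted on the recovered reads. Intervals are exact at 95%, and the floor was 3 reads. Gene symbols were matched for 11654 of 21607 Ensembl identifiers, and for 87 of 119 marker entries.

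LncRNAs were named by rule: the 10 highest in testis, the 5 lowest and highest in tau, 3 on each side of a limit, the 5 highest in ovary and muscle mixture, 3 in the other organs and stages, and the 3 shortest and longest. A clause on 5 lncRNAs at each end of the tissue mixture ratio selected none, and those of the mixture were named after their values were seen. The lncRNAs and lists were chosen with earlier results of these data known. Python 3.11.15, pandas 2.3.3, NumPy 2.4.6 and SciPy 1.17.1 were used.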

Additional observations from a re-analysis of the deposited data

How the results depend on the processing

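Of 38 alternatives over 12 results, 18 left the value within 1.5 times and 20 moved it, and no direction was under test. The number of lncRNAs, 100, was 241 with a limit of 5 RPKM in testis, 47 with 20 RPKM, 47 with RPKM scaled to the same total and 48 with the median ratio. The 31 with no reads in the 8 other organs became at most 58 under 3 reads, 50 under 0.1 RPKM and 95 under 1 RPKM. The 24 with ovary next to testis became 15 with the same total and 14 with the median ratio. Chosen after seeing the data, the scaling of sums moved ovary from 0.482% of testis to 0.321% with the median ratio and lung from 0.284% to 0.661% with the same total, and the median fold of testis over the next organ from 65.5 to 43.0 with the same total. The median level in the tissue mixture, 0% of testis, was 1.84% over the 5 lncRNAs with at least 20 reads there, 5.42% with a pseudocount of 1 RPKM, and 0.234% as a ratio of sums, which was also chosen then. The 13 lncRNAs at least 2-fold higher in the tissue mixture than in the muscle mixture became 0 with a pseudocount of 1, 3 at 4-fold and 0 among those of at least 1 RPKM, of which there were none. The 4 with at least 3 reads in a muscle stage were 18 at 1 read, and the 2 within 5 identifier numbers were 0 within 1 number. No paired analysis was possible because the labels give no replicates and each group was 1 library. Leaving out a replicate was not possible for the same reason. Depth limits the levels outside testis, where most lncRNAs rest on 0 to 3 reads, and differences between animals are not covered by any interval.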
